A study of Homo sapiens with 6 samples.

Results

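The genes described here are the chemokines that bind the receptor CXCR2, with CXCR2 itself and its close relative CXCR1. The members were found by symbol in the gene table, where CXCL1, CXCL2, CXCL3, CXCL5, CXCL6, CXCL8, PPBP, CXCR1 and CXCR2 each had 1 row, so 9 of 60748 rows were used. Of these genes, 7 encode ligands and 2 encode receptors. RNA was sequenced from LX-2, an established line of human hepatic stellate cells, the liver pericytes that lay down matrix when activated. The control cells carried the empty lentiviral vector (LX-2Vector, n = 3), and the others carried the same kind of vector with FAPα (LX-2FAP, n = 3), a serine protease of activated fibroblasts. Per the study's methods, the plasmid had a ubiquitin promoter, an EGFP cassette and a puromycin resistance gene, and stable clones were kept after puromycin. All cells grew in DMEM with fetal bovine serum and were cultured for 24 h. The labels do not say that the 3 libraries of a group came from separate cultures, so the p-values measure only the spread between these libraries, which may be technical.

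CXC chemokines are small secreted proteins with a pair of conserved cysteines parted by a single residue. Those with the sequence Glu-Leu-Arg before the cysteines bind CXCR2, a receptor coupled to Gi proteins, and draw neutrophils into tissue. CXCL6 and CXCL8 also bind CXCR1 with high affinity. In fibroblasts and stellate cells these genes are known as targets of IL-1, TNF and NF-kB, and their mRNAs are short-lived.

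The 7 ligand genes lie in 1 cluster on chromosome 4. In GENCODE release 29 (GRCh38) the cluster spans chr4:73740506-74099293, or 358.8 kb, and holds 16 annotated genes, of which 9 are protein coding. The 2 protein-coding genes there that are not members are PF4, the platelet chemokine CXCL4, with 1 to 6 counts per library, and its copy PF4V1, with 0 or 1 count. CXCR2 (chr2:218125289-218137253, plus strand) and CXCR1 (chr2:218162845-218166995, minus strand) are neighbours on chromosome 2.

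A stretch of promoter sequence is shown because it is what the ligand genes share beyond their receptor. The RefSeq promoters of all 9 members, 250 bases before to 50 bases after the start (GRCh38.p14), were searched on both strands for GGAATTTCC, a form of the site that NF-kB binds. It was found 1 time in each of 6 ligand genes, and 0.461% of 35116 RefSeq promoters hold it. The letters were not in the windows of PPBP, CXCR1 and CXCR2. Each line gives the site in capitals with 10 bases before and 11 bases after it, read 5′ to 3′ along the strand of the gene.
CXCL8 (chr4:73740468-73740497, plus strand): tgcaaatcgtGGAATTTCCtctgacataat
CXCL6 (chr4:73836579-73836608, plus strand): ctgagttcagGGAATTTCCccagcatccca
CXCL5 (chr4:73998748-73998777, minus strand): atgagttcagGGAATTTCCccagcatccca
CXCL1 (chr4:73869305-73869334, plus strand): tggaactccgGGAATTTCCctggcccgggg
CXCL3 (chr4:74038748-74038777, minus strand): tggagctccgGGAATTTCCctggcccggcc
CXCL2 (chr4:74099253-74099282, minus strand): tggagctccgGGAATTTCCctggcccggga

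These lines fall into 3 kinds. CXCL5 and CXCL6 were identical at 29 of 30 bases. CXCL1, CXCL2 and CXCL3 were identical at 27 or 28 of 30 bases in each pair, and CXCL8 matched each of the others at 14 to 17. The first base of the site stood 91 bases before the RefSeq start in CXCL8, 89 in CXCL6, 90 in CXCL5, 78 in CXCL1 and CXCL3, and 77 in CXCL2. With one more G in front, the site was in 5 of these promoters, CXCL8 being the exception, and in 0.145% of all promoters. TGACTCA, the site of AP-1, was in the CXCL8 window alone among the members, 137 bases before the start, and 4.95% of all promoters hold it on one strand or the other. GENCODE release 29 places some starts further upstream, so that the printed bases lie inside annotated exons for CXCL2, CXCL3, CXCL5 and CXCL6 and outside them for CXCL1 and CXCL8. A match is a description of the letters and does not show binding in these cells.

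The ligand transcripts also share ATTTA, the core of the AU-rich elements through which decay factors shorten the life of cytokine mRNAs. Between the stop codon and the end of the principal GENCODE transcript, CXCL2 had 10 copies in 721 bases, which is 13.9 per kb, and 0.769% of 18980 genes were at least as dense. CXCL3 had 10.4 per kb, CXCL8 7.19, CXCL1 7.08, CXCL5 5.51 and CXCL6 5.36, against a median of 1.33 per kb over all genes. PPBP had 1 copy in only 234 bases, or 4.27 per kb. CXCR2 had 2 in 1369 bases, or 1.46 per kb, and CXCR1 had 0 in 1314 bases. The longer word TTATTTATT occurred 5 times in CXCL2, 3 times in CXCL1 and 1 time each in CXCL3 and CXCL8, and 7.17% of genes hold it.

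The overexpressed gene separated the groups. The FAP counts of the control libraries were 49, 42 and 55, and those of the LX-2FAP libraries were 14864, 15160 and 14805. Total counts ran from 17355700 to 26352060 per library. Of 18275 genes tested with edgeR's quasi-likelihood test, 967 (5.29%) had an adjusted p under 0.05 and are named called genes below. Of the stellate cell markers, VIM, TIMP1 and COL1A1 were abundant, ACTA2 had 49 to 91 counts, LRAT was at 0 in every library and DES had 0 or 1 count. The collagen genes COL1A1 and COL3A1 and the PDGF receptor gene PDGFRB fell, with log2 fold changes of -0.40, -0.69 and -0.38, and the filament gene VIM rose by 0.13 (edgeR adjusted p = 0.0135, 0.00765, 0.0269 and 0.0372). The other tested stellate markers were not called. ACTA2 had -0.36, the collagen gene COL1A2, at 13 to 33 counts, had -0.13, and TIMP1 had 0.07. RGS5, which has separate rows under different identifiers, had 0.28 and 0.10.

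CXCL8, the chemokine IL-8, was the most abundant transcript among the members in both groups. Levels of different genes were compared in the FPKM values, which account for gene length. In LX-2Vector CXCL8 stood at 63.6 ± 13.1 FPKM (SD, n = 3), CXCL1 at 21.4 ± 1.74, CXCL5 at 4.85 ± 0.657 and CXCL2 at 4.73 ± 0.565. Lower still were CXCL6 at 2.54 ± 0.420 FPKM, CXCL3 at 1.49 ± 0.116, CXCR2 at 0.993 ± 0.241, CXCR1 at 0.643 ± 0.206 and PPBP at 0.360 ± 0.0758. Neighbours in this order had ranges that did not overlap, except CXCL5 with CXCL2 and CXCR2 with CXCR1.

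In LX-2FAP the order of the 9 genes by mean of the deposited FPKM was the same. CXCL8 stood at 59.2 ± 5.46 FPKM (SD, n = 3), CXCL1 at 21.0 ± 2.32, CXCL5 at 5.82 ± 0.671 and CXCL2 at 3.79 ± 0.273, and CXCL5 and CXCL2 no longer overlapped. CXCL6 stood at 2.21 ± 0.421, CXCL3 at 1.31 ± 0.0555, CXCR2 at 1.03 ± 0.0976, CXCR1 at 0.736 ± 0.152 and PPBP at 0.556 ± 0.0813. Here CXCR1 and PPBP were the only neighbours with overlapping ranges. Levels per length depend on the gene length used. The deposited FPKM of PPBP rest on 1307 bases, while its merged exons in GENCODE release 29 hold 715. For CXCL3 both lengths are 2219 bases, which covers the gene with its introns. Rescaled to the GENCODE lengths, PPBP stood at 0.658 ± 0.139 FPKM in LX-2Vector and 1.02 ± 0.149 in LX-2FAP, above CXCR1 in both groups (0.635 ± 0.203 and 0.728 ± 0.150), so the order of these genes is not settled. The 7 ligands kept their order among themselves. The rescaling could not check the place of CXCL3, whose level it left unchanged because both its lengths include the introns. By CPM, the normalized count scaled to library size, which ignores gene length, the 7 ligands stood in the same order.

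**Figure D1:**
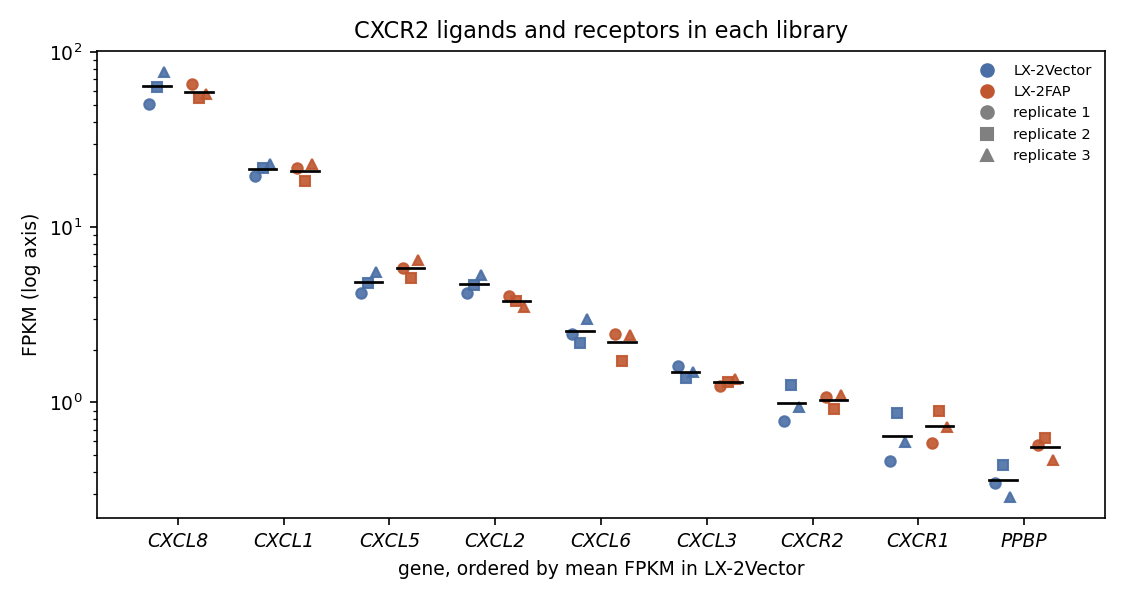
FPKM on a log axis for each ligand and receptor in each of the 6 libraries, ordered by the mean in LX-2Vector, with symbols for the replicate and a black line at each group mean. CXCL8 lies near 60 FPKM in both groups, and the receptors and PPBP lie near or under 1 FPKM.

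No ligand and no receptor was called between LX-2FAP and LX-2Vector, and 5.29% of all tested genes were. Fold changes are on the log2 scale of the edgeR fit, LX-2FAP minus LX-2Vector, and adjusted p-values are over all tested genes. PPBP was tested because its LX-2FAP libraries passed the filter on low counts, and it is left out of the next counts. At an unadjusted p under 0.05 there were 2 of the other 6 ligands, CXCL5 with a higher mean and CXCL2 with a lower one, and 22.2% of all tested genes met that threshold. Both also had a fold change over 1.2, a cutoff the study names for secreted factors, as did 7.89% of all tested genes with the same p. The CPM of the groups did not overlap for 1 of the 8 members besides PPBP, CXCL2, and for 26.4% of all tested genes.

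CXCL5, also known as ENA-78, had 10.3, 11.6 and 13.4 CPM in LX-2Vector replicates 1 to 3 and 14.3, 12.7 and 16.0 CPM in LX-2FAP. The groups overlapped, since LX-2FAP replicate 2 lay under LX-2Vector replicate 3. Its log2 fold change was 0.30 (SE 0.11, 95% interval 0.08 to 0.53, edgeR adjusted p = 0.105). The adjusted p was between 0.0372 and 0.416 over 14 alternatives, and CXCL5 was called in 1 of them, the fit with no filter on low counts. The counts behind these values were 203 to 343 per library.

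CXCL2, also known as MIP-2α, had 5.87, 6.44 and 7.38 CPM in LX-2Vector and 5.72, 5.39 and 4.96 CPM in LX-2FAP. Every LX-2FAP library lay under every LX-2Vector library, by a gap of 5.72 against 5.87 CPM at the nearest. The log2 fold change was -0.28 (SE 0.12, 95% interval -0.54 to -0.03, edgeR adjusted p = 0.178). CXCL5 and CXCL2 thus had point estimates of opposite sign, and neither passed the test.

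CXCL8 had 113.2, 140.4 and 170.4 CPM in LX-2Vector and 147.6, 124.0 and 131.2 CPM in LX-2FAP. The LX-2FAP libraries lay within the range of the LX-2Vector libraries. The log2 fold change was -0.07 (SE 0.10, 95% interval -0.29 to 0.15, edgeR adjusted p = 0.751). It was 0.10 without LX-2Vector replicate 3, the highest library, and -0.21 without LX-2Vector replicate 1, the lowest. The counts behind these values were 2231 to 3624 per library, the deepest among the members.

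CXCL1, the growth-regulated oncogene GROα, had 26.5, 29.2 and 30.9 CPM in LX-2Vector and 30.0, 25.4 and 31.5 CPM in LX-2FAP. Its log2 fold change was 0.01 with the narrowest interval among the members, from -0.16 to 0.18 (edgeR adjusted p = 0.964). CXCL3 and CXCL6, the other 2 ligands of the fibroblast set, had log2 fold changes of -0.18 (95% interval -0.48 to 0.13) and -0.17 (95% interval -0.50 to 0.16). Their CPM overlapped between the groups, from 3.02 to 3.56 against 2.80 to 3.06 for CXCL3 and from 4.39 to 6.06 against 3.56 to 5.09 for CXCL6.

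CXCL1, CXCL2 and CXCL3 are close copies, and reads may be shared among them. Of the words as long as a sequencing read in CXCL2 transcripts, 4.93% also occur in CXCL3, and 3.23% of those of CXCL3 occur in CXCL2, while the CXCL1, CXCL5, CXCL6, CXCL8 and PPBP transcripts shared no such word with another gene. The summed counts of CXCL1, CXCL2 and CXCL3 gave a log2 difference of -0.05 between the groups (edgeR adjusted p = 0.723). CXCR1 and CXCR2 shared under 1% of their words, at 0.921% and 0.699%.

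PPBP, the platelet basic protein from which the ligand CXCL7 is cut, was near the limit of detection. The control libraries held 12, 10 and 8 PPBP counts and the LX-2FAP libraries 18, 15 and 13. The log2 fold change was 0.66 (SE 0.30, 95% interval 0.02 to 1.31, edgeR adjusted p = 0.214). Since it passed the filter on low counts through its LX-2FAP libraries, its higher mean there is partly a condition of its being tested, and with at least 10 counts required in every library it was not tested. The summed CPM of 6 platelet and megakaryocyte markers was 4.39 to 6.05 in LX-2FAP and 7.07 to 8.10 in LX-2Vector. Most of that sum was the integrin gene ITGA2B, with 44 to 165 counts, which fell by 0.75 on the log2 scale (edgeR adjusted p = 0.0177). TUBB1 had 19 to 43 counts and was not called, PF4 and PF4V1 had at most 6 and 1, and GP9 and GP1BB were at 0 in all libraries. The part of platelet transcripts in the PPBP level was not tested.

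**Figure D2:**
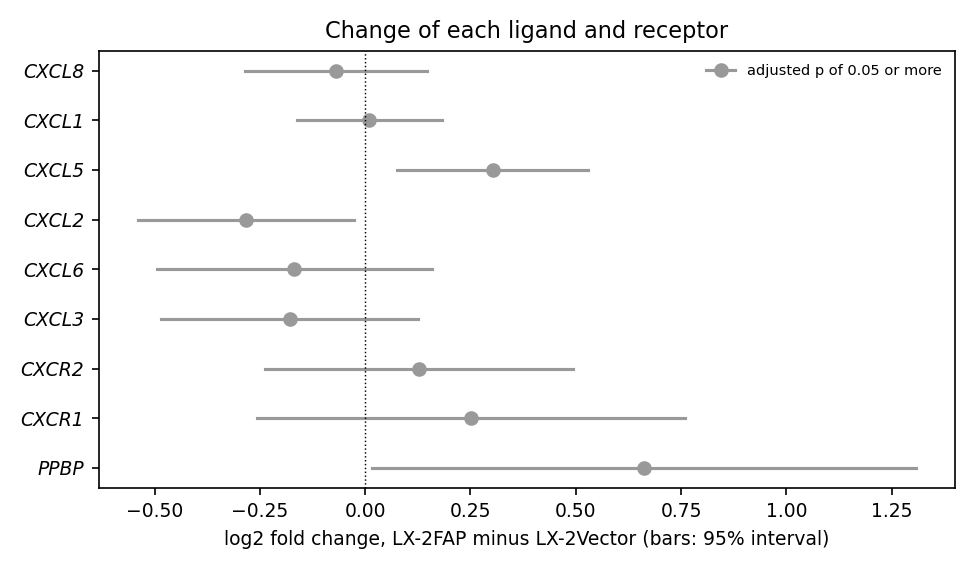
Log2 fold change of each ligand and receptor, LX-2FAP minus LX-2Vector, from edgeR, with bars for the 95% interval. The estimates run from -0.28 for CXCL2 to 0.66 for PPBP, and all 9 are drawn in grey because their adjusted p was 0.05 or more.

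The makeup of the ligand pool was compared within each library, which removes differences in scale between libraries. CXCL8 made up 71.3 ± 2.45% of the ligand counts in LX-2Vector and 70.2 ± 1.79% in LX-2FAP (SD, n = 3 each, exact 2-sided permutation p = 0.5). CXCL5 made up 6.22, 5.91 and 5.76% in LX-2Vector and 6.94, 7.28 and 8.34% in LX-2FAP, a difference of 1.55 percentage points between the means with no overlap (exact permutation p = 0.1). CXCL2 made up 3.35 ± 0.193% in LX-2Vector and 2.81 ± 0.254% in LX-2FAP, also with no overlap (exact permutation p = 0.1). With 3 libraries against 3, 0.1 is the smallest 2-sided p that this test can give, so none of the 7 shares compared could reach 0.05. The shares of CXCL1, CXCL3 and CXCL6 overlapped between the groups, and that of PPBP did not, at 0.243% against 0.388% on average. All of these are shares of counts, which ignore gene length. In summed FPKM the mean share of CXCL8 was lower, at 64.0% in LX-2Vector and 63.1% in LX-2FAP. That of CXCL1 was 21.8% and 22.3%, against 14.8% and 15.1% of the counts, and that of CXCL5 was 4.92% and 6.21%.

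CXCL5 was therefore set against each other ligand. The study chose CXCL5 from secreted factors raised in its sequencing of these cells, followed by RT-qPCR and ELISA. A higher share or ratio of CXCL5 in LX-2FAP is therefore partly a condition of that choice. The CXCL5 count per count of CXCL1 was 0.387, 0.396 and 0.432 in LX-2Vector and 0.478, 0.502 and 0.510 in LX-2FAP. Per count of CXCL8 it was 0.0906, 0.0824 and 0.0784 in LX-2Vector and 0.0970, 0.103 and 0.122 in LX-2FAP, and per count of CXCL2 it was 1.75, 1.80 and 1.81 against 2.50, 2.36 and 3.23. For CXCL1, CXCL2, CXCL3, CXCL6 and CXCL8, the 5 ligands besides PPBP, the ratio was higher in every LX-2FAP library than in every LX-2Vector library, by 0.30, 0.58, 0.46, 0.48 and 0.35 on the log2 scale (exact permutation p = 0.1 each, the smallest possible). The ratio to PPBP overlapped between the groups (exact permutation p = 0.4). These 6 ratios share the CXCL5 counts and are not independent, and the same was true of the ratio of CXCL5 to 31.3% of all other tested genes.

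**Figure D3:**
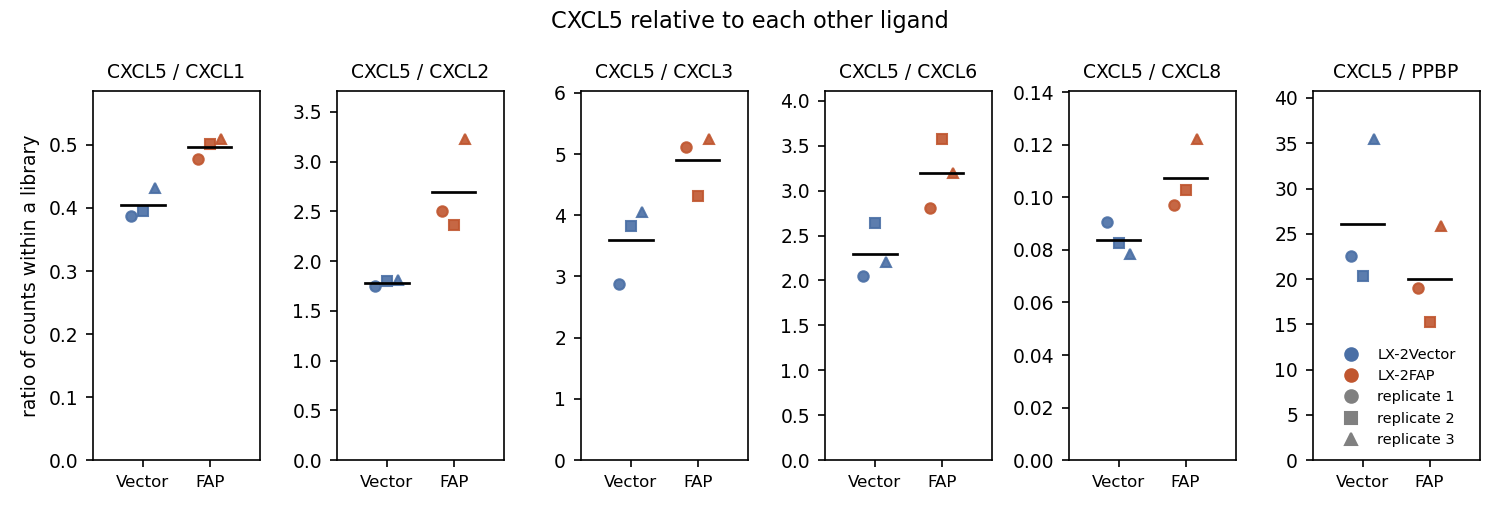
CXCL5 counts divided by the counts of each other ligand in the same library, on linear axes from 0, with black lines at the group means. The LX-2FAP points lie above the LX-2Vector points in all panels but that of PPBP.

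The summed level of the 7 ligands was 164.8, 195.6 and 231.8 CPM in LX-2Vector and 206.2, 174.9 and 192.3 CPM in LX-2FAP. The LX-2FAP sums lay within the range of the LX-2Vector sums, and CXCL8 set most of each sum.

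Both receptor transcripts were detected in every library at low counts. CXCR2 had 2.50, 3.99 and 3.01 CPM in LX-2Vector and 3.50, 3.00 and 3.58 CPM in LX-2FAP, from 54 to 84 counts. Its log2 fold change was 0.13 (SE 0.17, 95% interval -0.24 to 0.49, edgeR adjusted p = 0.724). CXCR1 had 1.14, 2.11 and 1.46 CPM in LX-2Vector and 1.46, 2.22 and 1.81 CPM in LX-2FAP, and its log2 fold change was 0.25 (SE 0.24, 95% interval -0.26 to 0.76, edgeR adjusted p = 0.589). The groups overlapped for both receptors, and both intervals include changes in either direction.

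Neutrophils are the cells best known for CXCR1 and CXCR2, so neutrophil markers were read in the same libraries. Of 8 markers, 5 had at least 10 counts in every library: the calprotectin genes S100A8 (97 to 173 counts) and S100A9 (184 to 294), the Fc receptor FCGR3B (110 to 158), the G-CSF receptor CSF3R (102 to 170) and MNDA (65 to 121). S100A12 had 9 to 16 counts, and the granule genes MPO and ELANE had 1 to 6 and 0 to 3. Among other leukocyte markers, the pan-leukocyte gene PTPRC had 97 to 130 counts, LYZ had 88 to 142 and CD14 had 53 to 86. The T cell gene CD3E had 2 to 10, CD68 had 2 to 6 and CD79A had 3 to 6. The labels name 1 cell line as the source of all libraries, and in bulk RNA fewer cells of a type and less RNA per cell cannot be told apart.

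The summed level of the 8 neutrophil markers was 26.5, 39.3 and 31.7 CPM in LX-2Vector and 36.1, 34.7 and 35.3 CPM in LX-2FAP. None of the 6 markers tested was called, and 5.29% of all tested genes were. MNDA came closest, with a log2 fold change of 0.48 and no overlap of CPM (edgeR adjusted p = 0.0601). S100A9, S100A8, FCGR3B and S100A12 had 0.23, 0.12, 0.07 and 0.01, and CSF3R had -0.09. LX-2Vector replicate 2 had the highest and LX-2Vector replicate 1 the lowest value both of the marker sum and of CXCR2. CXCR2 counts per neutrophil marker count were 0.0942, 0.102 and 0.0948 in LX-2Vector and 0.0971, 0.0865 and 0.101 in LX-2FAP. The highest of these ratios was 1.17 times the lowest, while the highest CXCR2 level in CPM was 1.60 times the lowest. For CXCR1 the same figures were 1.58 for the ratio and 1.96 for the level, and CXCL8 varied 1.51 times in level and about as much in the ratio. The part of neutrophil transcripts in the receptor levels was not tested.

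**Figure D4:**
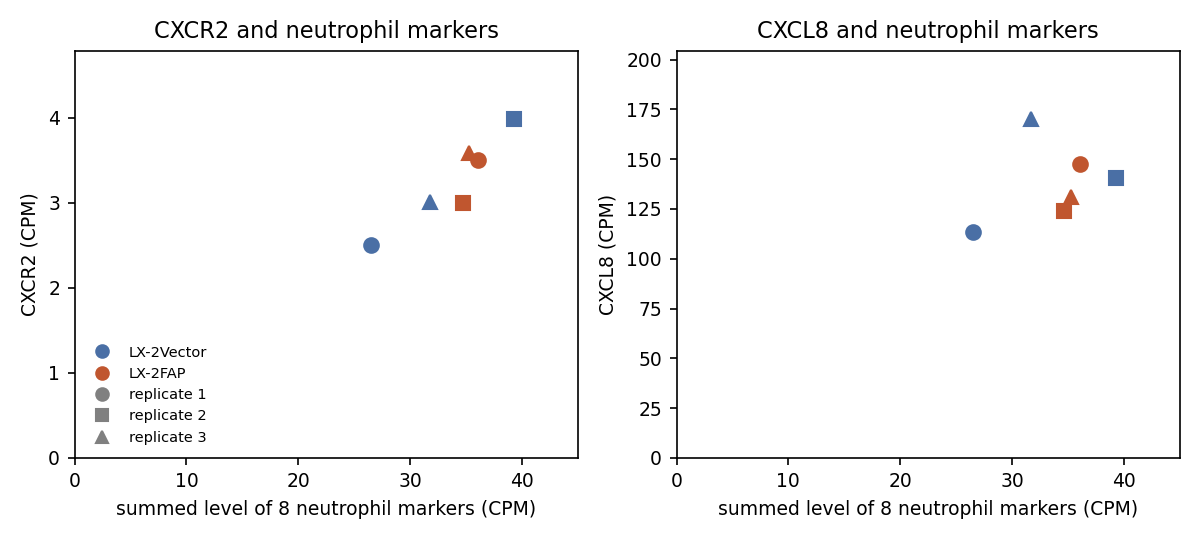
CXCR2 (left) and CXCL8 (right) in CPM against the summed CPM of 8 neutrophil markers, 1 point per library, on linear axes from 0. CXCR2 is lowest and highest in the same LX-2Vector libraries as the marker sum, and CXCL8 is highest in LX-2Vector replicate 3.

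Genes that act on these chemokines or downstream of their receptors were read as a list of 49, of which 41 were tested. Of those, 10 were called, 3 higher and 7 lower in LX-2FAP, which is 24.4% against 5.29% of all tested genes. The list was chosen with earlier results of these data known, so its share is a description and not a test. Of 39 cell type markers read beside it, 22 were tested and 6 were called, 1 higher and 5 lower, a share of about the same size. The median log2 fold change of the list was -0.07, and that of all tested genes was -0.01. The count depended on single libraries, at 6 when LX-2Vector replicate 3 was left out, 5 when it was LX-2FAP replicate 2 and 3 when it was LX-2FAP replicate 3. MMP1, MMP2 and MMP9 were called in all 6 fits that left out a library.

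Among the cytokines that induce the ligands and their receptors, 8 of 12 genes were tested and 1 was called, against 5.29% of all tested genes. IL1B, which encodes the secreted IL-1β, had 33.8, 36.0 and 34.6 CPM in LX-2Vector and 42.3, 40.2 and 43.4 CPM in LX-2FAP, with no overlap. It rose by 0.27 on the log2 scale (SE 0.06, edgeR adjusted p = 0.0152) and was called in 5 of the 6 fits without a library, the exception being that without LX-2FAP replicate 3 (adjusted p = 0.125). The study itself lists IL1B among the secreted factors raised in its sequencing of these cells, and reports a higher level by RT-qPCR. The rise given here rests on the same sequencing and is not a separate result. The TNF receptor gene TNFRSF1B had a log2 fold change of -0.25 and fell just outside the threshold (edgeR adjusted p = 0.0516).

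All 11 transcription factors and NF-kB inhibitors were tested, and 3 were called, all lower, against 5.29% of all tested genes called in either direction. NFKBIA, which encodes the inhibitor IkBα and is itself a target of NF-kB, had 72.6, 76.6 and 82.6 CPM in LX-2Vector and 68.4, 51.5 and 53.2 CPM in LX-2FAP. It fell by 0.41 on the log2 scale (SE 0.08, edgeR adjusted p = 0.0142). LX-2FAP replicate 1 lay closest to the controls, and the call was lost without LX-2FAP replicate 2 (adjusted p = 0.0707) and without LX-2FAP replicate 3 (adjusted p = 0.108). The immediate early gene EGR1 fell by 0.44 on the log2 scale, from 28.8 to 32.3 CPM in LX-2Vector to 21.2 to 24.5 CPM in LX-2FAP (edgeR adjusted p = 0.00675), and was not called when LX-2FAP replicate 3 was left out. CEBPD, a C/EBP factor of the acute phase response, fell by 0.97 at a level of 1.53 to 5.17 CPM (edgeR adjusted p = 0.0233) and was called in 3 of the 6 fits without a library, losing the call without the third LX-2Vector library and without the second or the third of LX-2FAP. The NF-kB subunit genes NFKB1 and RELA had log2 fold changes of -0.01 and -0.07, and the NF-kB targets TNFAIP3 and NFKBIZ had -0.07 and -0.17. None of these 4 was called (edgeR adjusted p = 0.958, 0.339, 0.609 and 0.235).

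Of 7 mRNA decay and stability factors, 1 was called, with a lower level, against 5.29% of all tested genes called in either direction. ZC3H12A, the endonuclease Regnase-1 that cuts cytokine mRNAs, had 20.4, 20.2 and 21.2 CPM in LX-2Vector and 17.9, 15.5 and 15.8 CPM in LX-2FAP. It fell by 0.33 on the log2 scale (edgeR adjusted p = 0.0246), and of the 6 fits without a library only that without LX-2FAP replicate 1 called it. Of 8 genes of receptor signalling, 1 was called, with a lower level, against 5.29% of all tested genes called in either direction. This was ARRB1, the β-arrestin 1 that uncouples and internalizes such receptors. It fell by 0.19 on the log2 scale (edgeR adjusted p = 0.0476), from 52.1 to 55.9 CPM in LX-2Vector to 45.4 to 49.6 CPM in LX-2FAP. ARRB1 too was called only without LX-2FAP replicate 1 among the 6 fits, and DESeq2 did not call it (Wald test, adjusted p = 0.0580). The scavenging receptors ACKR2 and ACKR3 were tested and not called.

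The proteases that trim chemokines moved in both directions. Of 8 genes 5 were tested, and 4 were called, where 5.29% of all tested genes were. This small group belongs to the list chosen with earlier results known. MMP1, the interstitial collagenase, had 583.7, 662.6 and 624.6 CPM in LX-2Vector and 819.0, 949.9 and 999.8 CPM in LX-2FAP. It rose by 0.57 on the log2 scale (SE 0.06, edgeR adjusted p = 0.000401). MMP3, stromelysin-1, rose by 0.43 (edgeR adjusted p = 0.0498), yet LX-2FAP replicate 1 at 14.8 CPM was barely above the highest control at 14.6 CPM, and of the 6 fits without a library only that without LX-2FAP replicate 1 called it. The gelatinases fell. MMP2 had 26.4, 27.1 and 31.8 CPM in LX-2Vector and 19.4, 14.4 and 16.1 CPM in LX-2FAP (a log2 difference of -0.76, edgeR adjusted p = 0.00185), and MMP9, known to cut the N-terminus of CXCL8, had 19.3, 19.5 and 25.1 CPM against 14.6, 9.90 and 10.4 CPM (log2 fold change -0.86, edgeR adjusted p = 0.00440).

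**Figure D5:**
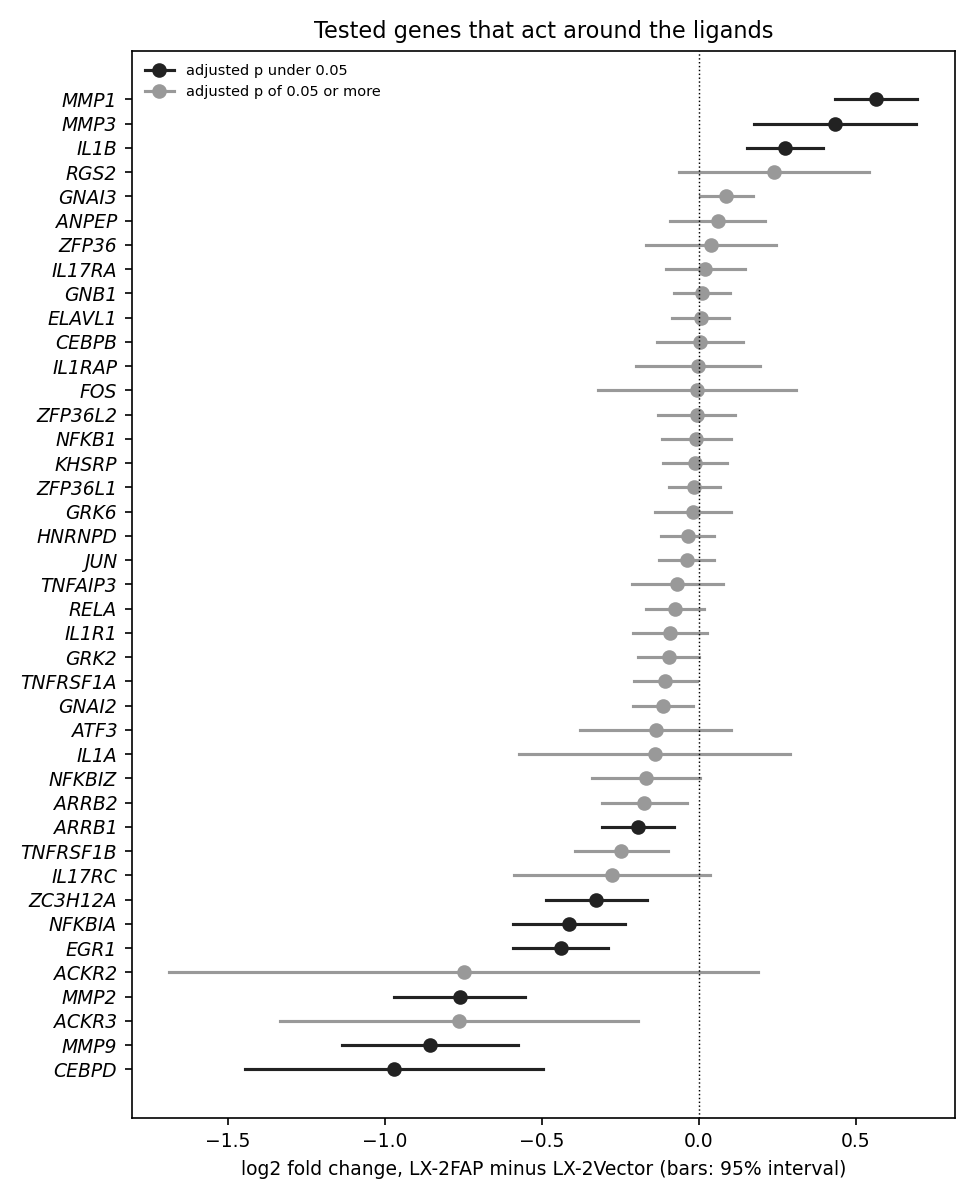
Log2 fold change, LX-2FAP minus LX-2Vector, of all 41 tested genes of the list around the ligands, with bars for the 95% interval from edgeR. The 10 called genes are black, from MMP1 at 0.57 to CEBPD at -0.97, and the NF-kB subunits lie near 0.

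The genes whose levels over the 6 libraries were most like those of CXCL5, the ligand the study singled out, and of CXCL8, the most abundant one, were found among 11555 genes, by the root mean square difference of centred log2 CPM. For CXCL5, whose own log2 CPM had an SD of 0.226, these were ENSG00000250697 (difference 0.0632), OTUD6B-AS1 (0.0714) and an unannotated locus (0.0754), and none was called. For CXCL8, with an SD of 0.206, they were the interferon gene IFNE (0.0512), ENSG00000269973 (0.0522) and CFAP300 (0.0529), and none was called. No other member was among the nearest 3 of either ligand.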

How the data were processed

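RNA was sequenced in 6 libraries, whose titles gave the groups and the replicate numbers. Ribosomal RNA was depleted according to the labels, whereas the methods text of the study adds a poly(A) step. The submitters' processing notes name HISAT2 2.0.5, featureCounts 1.5.0-p3, DESeq2 1.16.1, edgeR and hg18. The authors deposited whole-number counts per gene, not normalized, and FPKM values that the authors computed from count and gene length. The strand setting and annotation release are not given in the sources used here. Coordinates are those of GENCODE release 29 (GRCh38), which held 58337 of the 60605 Ensembl identifiers. They serve for location only, since the build of the counts is not settled, and no deposited coordinate was used. Columns of the authors' own comparisons were not used.

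Counts were tested with edgeR 4.0.16 (R 4.3.3, quasi-likelihood, TMM) after the default filter (minimum count 10, minimum total 15), which kept 18275 genes, with no covariate and Benjamini-Hochberg adjustment over all of them. All tests were 2-sided. CPM used the TMM-normalized library sizes. Shares, sums and ratios were computed within libraries. Standard errors and intervals follow from the test statistic. The test was checked on simulated data before use. Total counts, 17355700 to 26352060 per library, set the precision. Genes named are FAP, the members, list genes that were called (else the 3 of a role with the highest mean count), and the 3 genes nearest to CXCL5 and to CXCL8 with a mean count of at least 100. TNFRSF1B, the uncalled NF-kB genes, the marker genes that were not called, the other CXC genes that were not tested and KRT20 were picked after their values were seen. The members and lists were chosen with earlier results of these data known. Alternatives were DESeq2 1.42.0, other scalings and filters, limma 3.58.1 on the log2 scale of FPKM with a pseudocount of 1 or 0.1, a replicate block, and each library left out in turn. FPKM rescaled to GENCODE exon lengths were added after seeing the data.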

Additional observations from a re-analysis of the deposited data

How the results depend on the processing

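No ligand was called in any fit but the one with no filter on low counts, where CXCL5 was called (1 ligand, log2 fold change 0.30, adjusted p = 0.0372) and 1606 of 41175 genes passed. At an unadjusted p under 0.05, 3 ligands passed, 1 of them PPBP, and 22.2% of all tested genes did. The same 3 passed with a fold change over 1.2 besides, as did 7.89% of all tested genes. With at least 10 counts in every library, where PPBP is not tested, 2 ligands had an unadjusted p under 0.05. The share of all genes at that p was not computed for that fit. Limma-trend called 2 genes, none of the list of 49 (0), with a pseudocount of 1, and likewise 2 genes and 0 of the list with 0.1. Without 1 library, the genes called ran from 26 (without LX-2FAP replicate 3) to 1949 (without LX-2FAP replicate 1), with 129 when LX-2FAP replicate 2 was left out, 391 for LX-2Vector replicate 1 and 395 for LX-2Vector replicate 3. Those of the list ran from 3 to 12. Leaving out a library put the CXCL5 log2 fold change at 0.20 to 0.42 and moved the difference in the CXCL8 share from -2.40 to 0.0152 percentage points, the latter without LX-2Vector replicate 3. CXCR2 had a log2 fold change of -0.03 to 0.31 over 14 alternatives and CXCL1 of -0.05 to 0.09 over 15, so neither has a settled sign. The cause of these shifts was not tested.

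The replicate block called 975 genes, 0 ligands and 11 genes of the list, against 967, 0 and 10 without it. Libraries with the same number did not deviate together (r = -0.0389, 0.0436 and -0.00962 across genes), so the numbers were not taken as pairs. Depth limits PPBP, CXCR1 and CXCR2, which had 8 to 84 counts per library.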

Other observations

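Other CXC chemokines and receptors were read as a list of 14 genes, of which 4 had enough counts to be tested. The ligand of CXCR4, CXCL12, was the most abundant of them at 1662 to 4322 counts per library and fell by 0.60 on the log2 scale in LX-2FAP (edgeR adjusted p = 0.0104). CXCL16, the ligand of CXCR6, fell by 0.50 (edgeR adjusted p = 0.0456). Their receptors CXCR4 and CXCR6 had log2 fold changes of 0.52 and 0.02 and were not called (edgeR adjusted p = 0.429 and 0.964). The interferon-induced ligands of CXCR3 were at or near 0, with 0 counts of CXCL9 in every library, 1 to 6 counts of CXCL10 and 1 to 15 of CXCL11, and CXCR3 itself had 0 to 6. CXCL17 had 7, 5 and 5 counts in LX-2Vector and 0, 1 and 2 in LX-2FAP and was too low to be tested. CXCL14, also too low to be tested, had 12, 7 and 15 counts in LX-2Vector and 11, 4 and 4 in LX-2FAP, with overlap. Among all tested genes, the CPM of the groups did not overlap for 26.4%.

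KRT20, an intestinal epithelial keratin read as a marker of another cell type, had 23 and 20 counts in LX-2Vector replicates 1 and 2 and 1 or 2 counts in each of the other 4 libraries. The rest of its marker list did not share this pattern. EPCAM had 0 to 7 counts per library, CDH1 0 to 3, ALB 1 to 3 and APOA1 0 or 1.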
